A study of Mus musculus with 4 samples.

Results

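The genes described here are the interleukins, the tumour necrosis factor (TNF) superfamily ligands and their receptors, as measured by RNA sequencing of gastrocnemius, the large calf muscle, of mice. They were chosen by symbol: every row of the deposited gene table that names a single gene beginning with Il, Tnfsf or Tnfrsf and a digit, and that does not carry the mark for too many fragments (HIDATA). This gave 108 rows and 106 symbols out of 25833 rows, and 43 of these symbols had enough fragments for the authors to test them (status OK). The other 63 symbols were left untested by the authors, at FPKM values of at most 0.289. FPKM corrects the count of fragments for the length of the transcript and for the size of the library, so levels of different genes can be set side by side. The study compared C57BL/6J mice aged 8 weeks, wild-type controls (WT) and mice with a muscle-specific knock-out of Fundc1 (mKO), a mitochondrial outer membrane receptor for mitophagy, with 2 libraries in each group. Not given in the sources used here: the promoter or Cre line behind the deletion, and whether controls carried a modified allele. The table holds 1 FPKM per gene and group with an interval around it, made by the authors from both libraries of the group, so no value of a single animal and no depth can be given. Fundc1 itself was at 20.1 FPKM in WT (interval 16.3 to 23.8) and 4.23 FPKM in mKO (interval 3.15 to 5.31), with q = 0.00338 from the authors' deposited table.

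Interleukins are secreted signalling proteins, and their receptors are mostly built from a ligand-specific chain and a chain shared between several ligands. Shared chains include gp130 (Il6st) for interleukins of the IL-6 group, the common gamma chain (Il2rg) for the group of IL-2, IL-4 and IL-15, and the accessory chain Il1rap for the IL-1 family. TNF superfamily ligands act as trimers on receptors that either recruit TRAF adaptors to activate NF-kB or carry a death domain that can start apoptosis. In skeletal muscle, receptors of both families are made by fibres, fibro-adipogenic cells, endothelium and immune cells, while many of the ligands come from small numbers of immune cells.

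Most receptor symbols had enough fragments in this muscle to be tested and most ligand symbols did not. Of 55 receptor symbols 31 were tested, and of 45 ligand symbols 11. Tested members ranged from 0.192 FPKM (Il1b in WT) to 85.2 FPKM (Tnfrsf12a in mKO), with a median of the group means of 1.68 FPKM, against 5.70 FPKM over the 12490 symbols tested. The level was concentrated in few genes: Tnfrsf12a and Il6st together made up 57.5% of the summed FPKM of the tested members in WT and 59.0% in mKO. The sum itself was 235 FPKM in each group, 234.9 in WT and 234.7 in mKO.

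**Figure D1:**
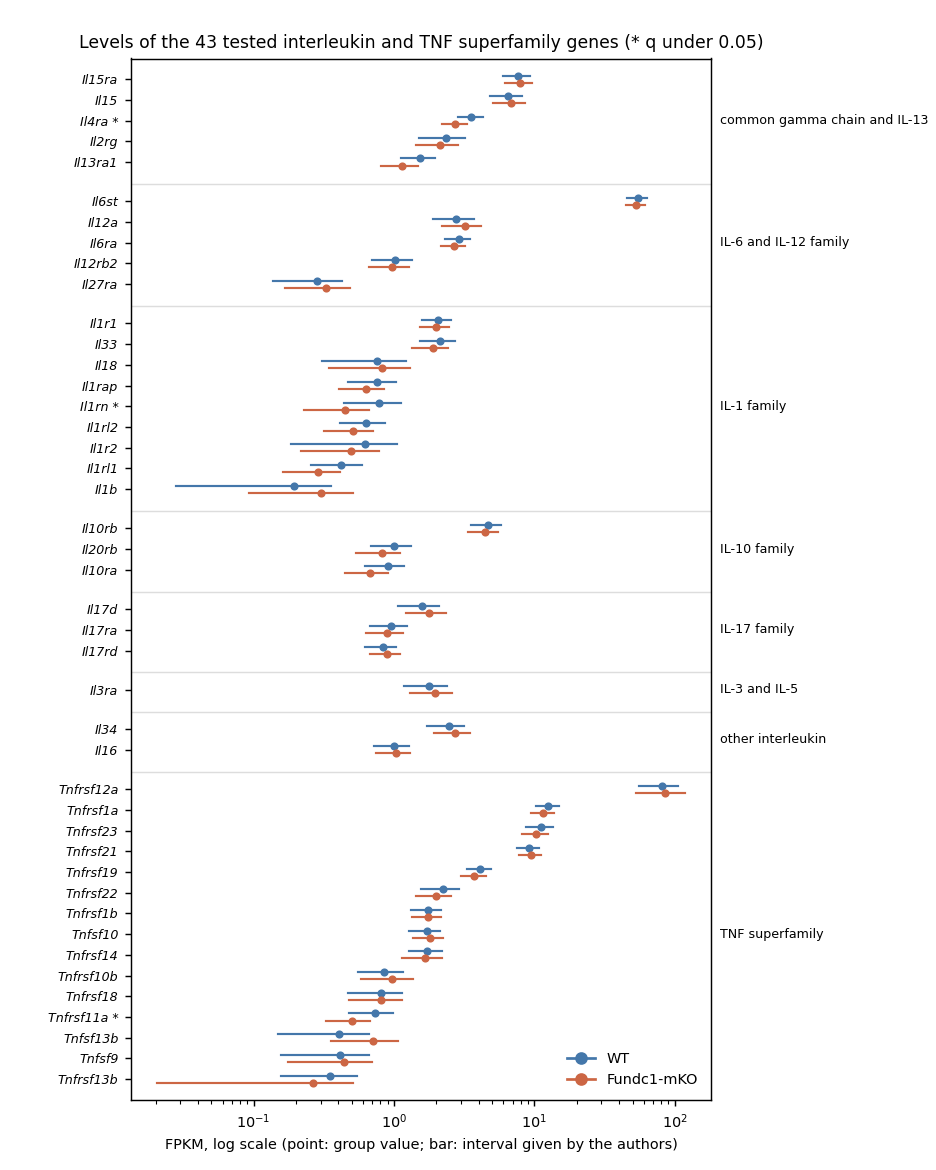
FPKM (log axis) of the 43 tested members in WT (blue) and mKO (red), grouped by family, with the interval given by the authors as a bar and an asterisk for q under 0.05. Tnfrsf12a (80.4 and 85.2 FPKM) and Il6st (54.6 and 53.2) stand above all other members, and the bars of both groups overlap for every gene.

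Between genotypes, 3 tested members fell in mKO and none rose: Il1rn, Il4ra and Tnfrsf11a. Below, rose and fell are used only where the authors' deposited table gives q below 0.05. These 3 make up 6.98% of the members, where 3.1% of all tested symbols were called in either direction, 2.39% as lower and 0.705% as higher. The authors' deposited table gave p below 0.05, before adjustment, to 7 members or 16.3%, which is near the 12.4% over all tested symbols. Of these 7, 6 were lower and 1 higher, where 8.57% of all tested symbols were lower and 3.79% higher at that p. None of the 43 members had intervals that lay apart in WT and mKO, which is near the share of 0.504% over all tested symbols.

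Il1rn encodes the IL-1 receptor antagonist, a secreted protein that occupies the IL-1 receptor without activating it. It was at 0.784 FPKM in WT (interval 0.441 to 1.13) and 0.444 FPKM in mKO (interval 0.230 to 0.658). That is a 1.77-fold lower level in mKO, a log2 ratio of -0.82 (SE 0.47, computed from the interval widths), with q = 0.0203 from the authors' deposited table. Il1rn lies on chromosome 2 from 24336860 to 24351491 (mm10, plus strand) and is annotated as protein-coding. Il4ra encodes the receptor chain that IL-4 and IL-13 share. Its level was 3.56 FPKM in WT (interval 2.84 to 4.27) and 2.73 FPKM in mKO (interval 2.18 to 3.28), which is 1.30-fold lower, with a log2 ratio of -0.38, an SE of 0.21 and q = 0.0222 from the authors' deposited table. It lies on chromosome 7 from 125552282 to 125579474 on the plus strand. Tnfrsf11a encodes RANK, the receptor of the osteoclast factor RANKL and a TRAF-coupled activator of NF-kB. It was at 0.726 FPKM in WT (interval 0.475 to 0.978) and 0.4998 FPKM in mKO (interval 0.327 to 0.672), 1.45-fold lower, with a log2 ratio of -0.54, an SE of 0.35 and q = 0.0439 from the authors' deposited table. It spans chromosome 1 from 105780722 to 105849455 on the plus strand. For each of these 3 genes the log2 ratio plus or minus 2 SE still includes 0, as it does for 208 of the 383 called symbols with a level above 0 in both groups. Read against a normal distribution, that statistic called none of the 43 members and 0.128% of all tested symbols. Il1rn and Tnfrsf11a were at mean levels under 1 FPKM.

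The promoters of the 3 genes that fell are shown because these are the members with a called change in the same direction. Each runs from 250 bases before to 50 bases after the start site in RefSeq (GRCm38.p6, the assembly also called mm10), 5′ to 3′. Their positions are chr2:24336610-24336909 for Il1rn, chr7:125552021-125552320 for Il4ra and chr1:105780473-105780772 for Tnfrsf11a, all on the plus strand. Of 3 start sites listed for Il1rn, the one at the start of the measured locus was taken. Capitals mark matches, on either strand, to the AP-1 motif TGANTCA, the STAT motif TTCNNNGAA, the STAT6 consensus, which has 1 more base in its gap, the GC box GGGCGG, the TATA box TATAAA or the NF-kB consensus.
Il1rn: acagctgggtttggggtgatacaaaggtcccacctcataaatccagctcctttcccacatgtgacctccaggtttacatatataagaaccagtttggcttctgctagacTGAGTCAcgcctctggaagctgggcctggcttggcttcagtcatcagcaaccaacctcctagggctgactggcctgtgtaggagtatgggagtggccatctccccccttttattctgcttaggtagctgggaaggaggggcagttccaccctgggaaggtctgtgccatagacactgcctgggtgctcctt
Il4ra: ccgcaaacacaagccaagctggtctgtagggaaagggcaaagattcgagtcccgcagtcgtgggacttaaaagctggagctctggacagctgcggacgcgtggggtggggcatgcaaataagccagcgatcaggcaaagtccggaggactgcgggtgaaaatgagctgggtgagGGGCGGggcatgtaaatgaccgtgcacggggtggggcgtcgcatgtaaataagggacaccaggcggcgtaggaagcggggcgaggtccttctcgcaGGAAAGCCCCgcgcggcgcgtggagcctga
Tnfrsf11a: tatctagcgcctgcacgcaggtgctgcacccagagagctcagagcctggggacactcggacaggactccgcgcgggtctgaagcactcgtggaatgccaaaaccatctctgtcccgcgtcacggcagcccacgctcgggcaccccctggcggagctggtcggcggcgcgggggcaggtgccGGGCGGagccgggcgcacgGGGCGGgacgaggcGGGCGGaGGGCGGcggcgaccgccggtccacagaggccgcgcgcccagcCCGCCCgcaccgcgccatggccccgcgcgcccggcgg
The Il1rn window held 1 AP-1 match and no other, and 7.81% of 32817 promoters of this length in the table hold at least 1 AP-1 match. The Il4ra window held 1 GC box, found in 35.6% of promoters, and 1 match to the NF-kB consensus, found in 4.5%. The Tnfrsf11a window held 5 GC boxes and none of the other motifs. STAT, STAT6 and TATA matches, which 8.29%, 6.94% and 13.6% of promoters hold, were in none of the 3 windows, and no motif was shared by all 3. The matches did not overlap each other. The GC content was 54.0% for Il1rn, 62.0% for Il4ra and 76.7% for Tnfrsf11a.

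Ligands and receptors lay on different sides of equality. Of 11 tested ligands 10 were at higher FPKM in mKO, and of 31 tested receptors 22 were at lower FPKM (24 when both groups were scaled to equal totals, since Tnfrsf18 and Tnfrsf1b then changed side). Over all tested symbols 57.4% had the lower FPKM in mKO, and the 24 lower members are 55.8% of the 43. With both groups scaled to equal medians these shares were 48.9% and 55.8%, and with equal totals 58.7% and 60.5%, so which of them was larger depended on the scaling. The median log2 ratio of FPKM + 1 was 0.06 for the ligands, -0.08 for the receptors, -0.03 for all 43 members and -0.02 for all tested symbols. These differences were small beside the error of a single member, whose log2 ratio had a median SE of 0.32, and the split between ligands and receptors was not tested. The FPKM of 34 members differed by less than 1.25-fold, 79.1% of them, against 89.5% of all tested symbols.

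**Figure D2:**
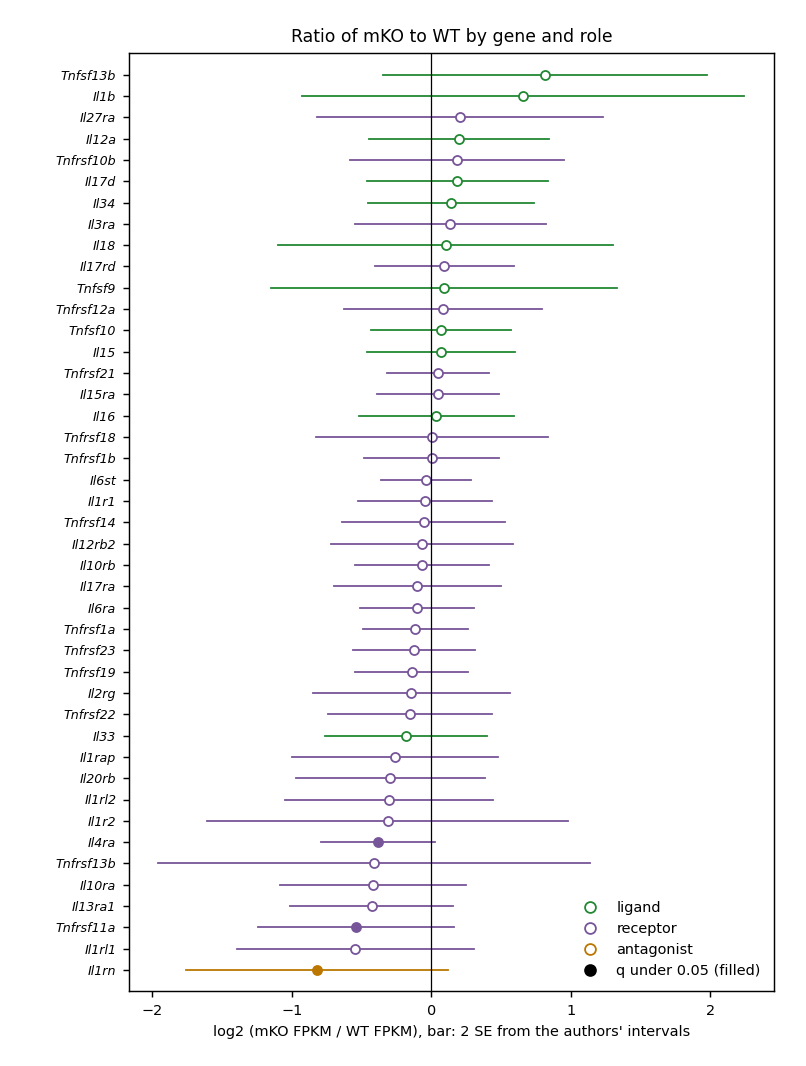
Log2 ratio of mKO to WT FPKM for each tested member, with bars of 2 SE, coloured by role and filled for q under 0.05. All 43 bars cross 0, including those of Il1rn (-0.82), Tnfrsf11a (-0.54) and Il4ra (-0.38), and 10 of the 11 ligands lie above 0.

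In the IL-1 family 9 of 20 symbols were tested, and 7 of these 9 were at lower FPKM in mKO, among them all 5 receptors. The lower FPKM was in mKO for 57.4% of all tested symbols and 62.0% of those with a mean under 1 FPKM. Only Il1rn of these 9 passed q, and the direction of the family was not tested. Il33, an alarmin of stromal cells that signals through ST2, was at 2.13 FPKM in WT against 1.88 in mKO. Its receptor gene Il1rl1, which encodes ST2, was at 0.421 FPKM in WT (interval 0.254 to 0.588) and 0.288 in mKO (interval 0.163 to 0.414), with p = 0.0085 and q = 0.137 from the authors' deposited table. The signalling receptor of IL-1, Il1r1, was at 2.05 and 1.99 FPKM, and the decoy receptor Il1r2 at 0.617 and 0.497. Il1rl2, the receptor of the IL-36 cytokines, was at 0.634 FPKM in WT against 0.514 in mKO, and the shared accessory chain Il1rap at 0.752 and 0.627. None of these 5 receptors passed q, and only Il1rl1 had a p below 0.05 before adjustment in the authors' deposited table. Il1r2, Il1r1, Il1rl2 and Il1rl1 are neighbours on chromosome 1, in that order between 40076212 and 40465414 in mm10. The inflammasome product genes Il1b and Il18 were on the higher side in mKO. Il1b, at 0.192 FPKM in WT (interval 0.0279 to 0.357) and 0.303 in mKO (interval 0.0931 to 0.514), was 1.58-fold higher, with q = 0.462 in the authors' deposited table. It overlaps the antisense gene Il1bos, at 0 in WT and 0.0132 FPKM in mKO, and strand use in counting, not given in the sources used here, decides whether reads of the pair can be told apart. Il18 was at 0.760 and 0.817 FPKM. The antagonist Il1rn was thus at a higher FPKM than its competitor Il1b in both groups. The values were 0.784 against 0.192 FPKM in WT and 0.444 against 0.303 FPKM in mKO. In mKO their intervals overlapped (0.230 to 0.658 and 0.0931 to 0.514), and a change in the balance of the pair was not tested. Among the untested members Il1a, the other IL-1 ligand, was at 0.0452 and 0.0348 FPKM, and Il1f9, an IL-36 ligand, at 0.158 and 0.225. Both IL-18 receptor chains were near 0: Il18r1 at 0.0386 and 0.0481 FPKM and Il18rap at 0.0571 and 0.0669.

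Of the common gamma chain group and IL-13, 5 of 17 symbols were tested. Il15, which muscle fibres are known to make, was at 6.48 FPKM in WT (interval 4.78 to 8.19) and 6.80 in mKO (interval 5.06 to 8.55). Il15ra, which presents IL-15 to other cells, was at 7.61 and 7.86 FPKM with intervals of 5.98 to 9.24 and 6.18 to 9.54. Ligand and receptor chain were thus at like levels, and both were above every other tested interleukin or interleukin receptor except Il6st. The common gamma chain gene Il2rg was at 2.36 FPKM in WT against 2.14 in mKO. Il13ra1 encodes the chain that pairs with the Il4ra product in the receptor of non-haematopoietic cells, and it stood just short of the threshold. It was at 1.54 FPKM in WT (interval 1.11 to 1.96) and 1.14 in mKO (interval 0.804 to 1.48), 1.34-fold lower, with p = 0.0035 and q = 0.0811 from the authors' deposited table. Their ligands were barely detected, with Il4 at 0.0995 and 0.0900 FPKM and Il13 listed at 0 in both groups. Lymphocyte receptor chains were also untested: Il2ra was at 0.255 FPKM in WT against 0.289 in mKO, Il2rb at 0.0562 and 0.0379, and Il7r at 0.289 and 0.189. Il7, a lymphocyte survival factor, was at 0.129 and 0.0862 FPKM.

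The shared receptor chain of the IL-6 group was abundant, while the interleukins Il6 and Il11 were not tested. Il6st, which encodes gp130, was at 54.6 FPKM in WT (interval 45.9 to 63.3) and 53.2 in mKO (interval 44.7 to 61.7), with a log2 ratio of -0.04 and an SE of 0.16. Il6ra, the chain that binds IL-6, was at 2.89 and 2.69 FPKM, q = 0.790 in the authors' deposited table. Il6 itself, a cytokine that contracting muscle releases, was untested at 0.0979 FPKM in WT against 0.0733 in mKO, and Il11 at 0.0419 and 0.0315. Another gp130 ligand, cardiotrophin-1 (Ctf1, of the list of related cytokines and named after its values were seen), was at 8.85 FPKM in WT against 7.85 in mKO and did not pass q. Il12a, a subunit of IL-12, was at 2.78 FPKM in WT (interval 1.88 to 3.68) and 3.19 in mKO (interval 2.20 to 4.18), q = 0.699 in the authors' deposited table. Its partner Il12b was listed at 0 in both groups. Of the IL-12 receptor chains Il12rb2 was at 1.01 and 0.969 FPKM and Il12rb1 at 0.0169 and 0.0299. Il27ra, which forms the IL-27 receptor with gp130, was at 0.283 FPKM in WT against 0.326 in mKO. Il27 was listed at 0 in WT and at 0.283 FPKM in mKO with an interval of 0 to 0.604, and it was not tested by the authors.

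Other interleukin families gave 9 tested members, none of which passed q. Il10rb, a chain shared by receptors of IL-10, IL-22 and type III interferons, was the highest of them at 4.63 FPKM in WT (interval 3.54 to 5.73) and 4.42 in mKO (interval 3.38 to 5.47). The ligand-binding IL-10 receptor chain Il10ra, found mainly on immune cells, was at 0.899 FPKM in WT (interval 0.616 to 1.18) and 0.674 in mKO (interval 0.444 to 0.903), 1.34-fold lower, with p = 0.0122 and q = 0.170 from the authors' deposited table. Il20rb, a receptor chain for IL-20 and IL-24, was at 1.004 and 0.819 FPKM, and its partner Il20ra was listed at 0 in both groups. Il10 itself was at 0.0735 and 0.0296 FPKM. In the IL-17 family Il17d, a ligand of the IL-17 family, was at 1.57 FPKM in WT (interval 1.06 to 2.08) and 1.78 in mKO (interval 1.22 to 2.34). The shared IL-17 receptor chain Il17ra was at 0.956 and 0.891 FPKM, and Il17rd, which also restrains FGF receptor signalling, at 0.829 and 0.885. The ligands Il17a and Il17c were listed at 0 in both groups. Il3ra, the IL-3 receptor chain, was at 1.77 and 1.95 FPKM. Il34, a ligand of the macrophage receptor CSF1R, was at 2.44 FPKM in WT (interval 1.73 to 3.16) and 2.70 in mKO (interval 1.92 to 3.48). Il16, a chemoattractant of CD4+ cells, was at 0.999 and 1.02 FPKM.

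The TNF superfamily had 15 of 27 symbols tested, and its receptors included 4 of the 5 members with the highest mean levels. Tnfrsf12a encodes Fn14, the receptor of TWEAK, which is known to rise in denervated muscle, and it was the highest member in both groups at 80.4 FPKM in WT (interval 55.7 to 105) and 85.2 in mKO (interval 52.4 to 118). Its interval was wide, with an SE of 0.36 on the log2 ratio of 0.08, against 0.16 for Il6st. Its locus in the table also holds Thoc6, Hcfc1r1 and Ccdc64b, each with a row of its own. Tnfrsf1a, the ubiquitous TNF receptor with a death domain, was at 12.5 FPKM in WT (interval 10.2 to 14.8) and 11.6 in mKO (interval 9.42 to 13.7). Tnfrsf1b, the other TNF receptor, was at 1.75 in both groups. Tnfrsf21, also a death domain receptor, was at 9.11 FPKM in WT (interval 7.48 to 10.8) and 9.43 in mKO (interval 7.74 to 11.1). Tnfrsf19 was at 4.12 FPKM (interval 3.31 to 4.93) and 3.74 (interval 2.99 to 4.49). Tnfrsf23 and Tnfrsf22 are neighbouring, similar genes on chromosome 7 that encode decoy receptors for TRAIL in the mouse. Tnfrsf23 was at 11.2 FPKM in WT (interval 8.75 to 13.6) and 10.3 in mKO (interval 8.14 to 12.4). Tnfrsf22 was at 2.22 and 1.99 FPKM, with the division of reads between similar genes not given in the sources used here. Tnfrsf10b, the mouse TRAIL receptor with a death domain, was at 0.853 FPKM in WT against 0.970 in mKO, and its ligand gene Tnfsf10 at 1.70 and 1.79. Expression of TRAIL decoy receptor genes was thus above that of the signalling receptor gene in both groups, with the interval of Tnfrsf10b in mKO (0.580 to 1.36) below those of Tnfrsf23 and Tnfrsf22.

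Receptors and ligands of lymphocyte co-stimulation were at low levels. Tnfrsf14, the herpesvirus entry mediator, was at 1.73 FPKM in WT against 1.66 in mKO, and Tnfrsf18, which is found on regulatory T cells, at 0.803 and 0.805. Tnfsf9, a co-stimulatory ligand, was at 0.410 and 0.437 FPKM, and its receptor gene Tnfrsf9 was untested at 0.0698 and 0.0602. Tnfsf13b encodes BAFF, the B cell survival factor of myeloid cells, and had the largest difference towards mKO on log2(FPKM + 1) among the members, 0.28. It was at 0.404 FPKM in WT (interval 0.148 to 0.659) and 0.710 in mKO (interval 0.358 to 1.06), 1.76-fold higher, with a log2 ratio of 0.82, an SE of 0.58, and p = 0.00525 and q = 0.103 from the authors' deposited table. Of the BAFF receptors, Tnfrsf13b was at 0.350 FPKM in WT against 0.264 in mKO, Tnfrsf13c at 0 and 0.0168, and Tnfrsf17 at 0.134 and 0.0863. For RANK, described above, the ligand Tnfsf11 was at 0.0179 and 0.0149 FPKM and the decoy receptor Tnfrsf11b at 0.0483 and 0.0528.

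**Figure D3:**
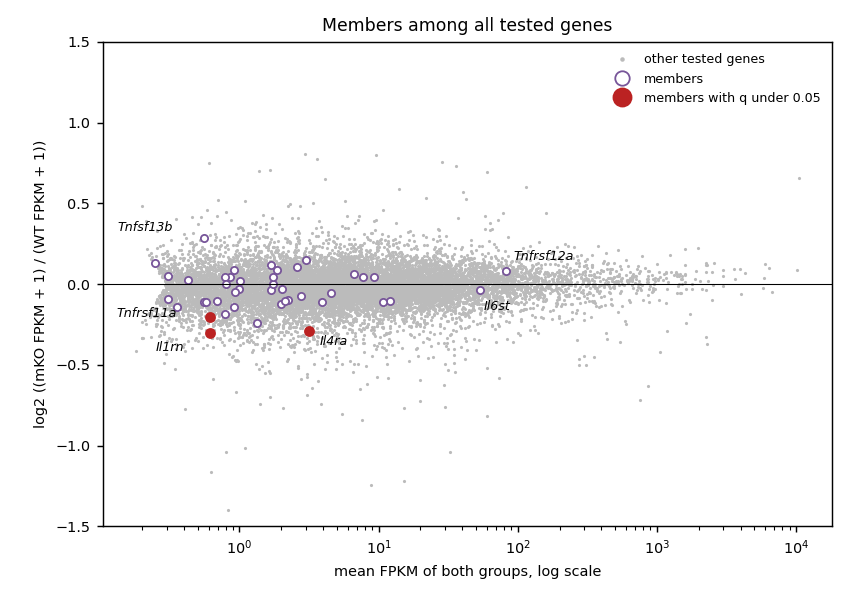
Log2 ratio of FPKM + 1 against the mean FPKM of both groups (log axis) for all tested genes (grey), members (open circles) and members with q under 0.05 (red), with 17 other genes outside the vertical axis. Members lie within the cloud of the other genes, from -0.31 (Il1rn) to 0.28 (Tnfsf13b).

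Of the 63 untested symbols, 23 had a row at 0 in both groups and 40 were above 0 in at least 1 group. None exceeded 0.5 FPKM. Those at 0 in both groups included the T cell cytokines Il2, Il9, Il13, Il17a, Il21 and Il22 and the myeloid subunits Il12b and Il23a. There were 7 at 0 in WT alone and 4 at 0 in mKO alone, and the highest of these was Il27, described above. A further 7 rows named a member together with other genes, such as Galt with Il11ra1 or Senp3 with Tnfsf12 and Tnfsf13. None of these 7 passed q, and their FPKM cannot be assigned to the member.

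Other genes of these pathways were called at rates near those of all tested symbols. Of 50 tested adaptors, kinases and transcription factors of interleukin and TNF signalling 1 rose and none fell, which is 2.0% called against 3.1% of all tested symbols. Before adjustment 8 had p below 0.05 in the authors' deposited table, 16% against 12.4%. The gene that rose was Traf4, a TRAF adaptor, at 1.31 FPKM in WT against 1.83 in mKO, q = 0.0144 in the authors' deposited table. The most abundant were Stat5b at 54.7 and 54.9 FPKM, Jak1 at 45.6 and 44.8, and Tab2, an adaptor of the kinase TAK1, at 40.6 and 46.0. The list's median log2 ratio of FPKM + 1 was -0.02, equal to that of all tested symbols at this precision. Of 25 tested related ligands and receptors with other names none passed q, and 5 or 20% had p below 0.05 before adjustment in the authors' deposited table, whose columns are those of Cuffdiff. The median of that list was -0.005. Tnf itself was untested at 0.137 FPKM in WT against 0.0715 in mKO. The highest of that list were Mif at 216 and 215 FPKM, Ifngr2 at 48.1 and 50.8, and Cd74 at 42.5 and 49.1.

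Markers of some cell types differed between the groups, and those of others were not called or not tested. Macrophage markers were lower in 9 of 9 cases and 6 fell, with a summed level of 198 FPKM in WT against 155 in mKO and none at 0. Among them Mrc1, the mannose receptor gene, fell from 7.94 to 5.12 FPKM. All 7 granulocyte markers were at higher FPKM and 5 rose, with a sum of 198 FPKM in WT against 273 in mKO. Of 7 fibro-adipogenic and fibroblast markers 5 were at lower FPKM and 2 fell, Col1a1 and Col3a1. The sum of all 7 was 391 FPKM in WT against 366 in mKO. Of 5 tested epidermal markers 2 fell and all 5 were lower, with a sum of 6.22 FPKM in WT against 1.42 in mKO. All 5 had intervals apart, against 0.504% of all tested symbols. Some large differences among them did not pass q: Krt1 was at 1.65 FPKM in WT against 0.00624 in mKO, q = 0.637 in the authors' deposited table. Lymphocyte markers were scarce: of 7 T cell markers the authors tested 1, Cd3e at 0.759 and 0.589 FPKM, and of 4 B cell markers none. The innate lymphoid list had 2 of 4 markers tested, on different sides. Its untested markers Ncr1 and Klrb1c were at 0 and 0.00809 FPKM in WT and at 0.0365 and 0 FPKM in mKO. Gata3 rose at a low level, from 0.160 to 0.354 FPKM. Rora was at 23.3 FPKM in WT against 22.5 in mKO, q = 0.938 in the authors' deposited table. That level, far above the rest of its list, cannot be assigned to innate lymphoid cells in bulk muscle. All 5 endothelial markers were at higher FPKM and none passed q, with a sum of 63.8 and 68.4. Of 7 muscle fibre markers 6 were tested, 4 were at lower FPKM and Myh2 fell. Their sum was 11004 FPKM in WT against 11297 in mKO, so defining fibre genes were abundant in both groups. Pvalb, at 5705 and 6219 FPKM, was the largest part of that sum. The 3 members that fell were Il1rn, Il4ra and Tnfrsf11a. The tested macrophage and epidermal markers and most fibroblast and fibre markers had the same direction. Granulocyte and endothelial markers had the opposite direction. Of all tested symbols, 57.4% had the lower FPKM in mKO as well. Of the other 4 members with p below 0.05 before adjustment in the authors' deposited table, Il1rl1, Il13ra1 and Il10ra were also lower and Tnfsf13b was higher. The part of these cell types in the members' values was not tested, and in bulk muscle fewer cells of a type and less RNA per cell cannot be told apart.

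**Figure D4:**
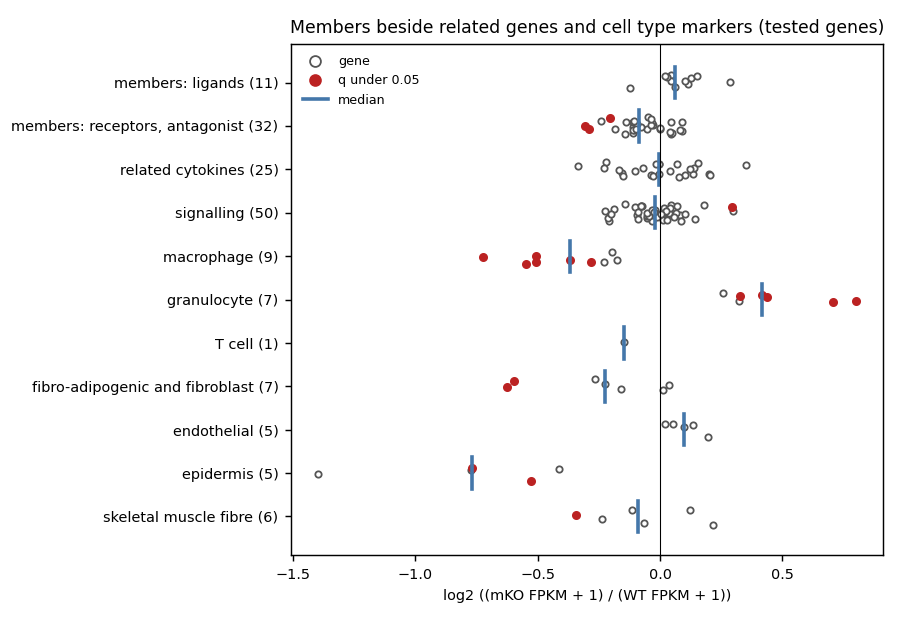
Log2 ratio of FPKM + 1 for tested genes of each list (points; red for q under 0.05; blue line for the median), with the number of tested genes in brackets. The member ligands (median 0.06) and receptors with the antagonist lie close to 0, macrophage markers (median -0.37) and epidermal markers (median -0.77) lie below, and granulocyte markers (median 0.42) above.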

How the data were processed

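RNA of gastrocnemius was sequenced from 2 WT and 2 mKO mice, called biological replicates in the labels. Per the submitters' processing notes, bcl2fastq, FastQC 0.11.3, TopHat2 2.0.14, Cufflinks 2.2.1 and the build mm10 were used, with no roles given. Not given in the sources used here: annotation, settings, read totals. Per the file headers, the authors deposited 1 FPKM per gene and group with an interval, a test score (statistic), a p-value and a q-value in a Cuffdiff-style table. Depth is unknown.

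Members and lists were chosen with earlier results of these data known. Where a symbol had several tested rows the most abundant was kept, leaving 12490 symbols. The distance from FPKM to the upper bound was read as 2 SD, and the log2 ratio over the SE so derived came within 1% of the deposited statistic in 100% of symbols. The deposited q equalled a Benjamini-Hochberg adjustment of the authors' p over 14134 tested rows. Lists used a pseudocount of 1, which understates changes of low genes. Named genes were all tested members, with intervals for those past q, the 10 highest and the 5 largest rises and falls, and for other lists the genes past q and at most 3 more. As exceptions, fewer genes of the cell type lists are named, and untested members are named for their place in a ligand and receptor pair. With no values per library the planned linear model could not be fitted, and the authors' q was counted, as foreseen. Starts were converted to count from 1. The normal reading of the statistic, an alternative, was tested on simulated data. Alternatives were other thresholds, pseudocounts, minimum FPKM, scalings and row types. Python 3.11.15, numpy 2.4.6, pandas 2.3.3, scipy 1.17.1 and matplotlib 3.10.9 were used.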

Additional observations from a re-analysis of the deposited data

How the results depend on the processing

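The 3 called members became 0 at a q under 0.01, 7 at an unadjusted p under 0.05, 1 (Il4ra) at a mean FPKM of at least 1 and 0 when the authors' statistic was read against a normal distribution, with adjusted p-values near 1; at a q under 0.10 there were 4, Il13ra1 being the fourth. The signalling genes went from 1 call to 3, 0, 8 and 0 at a q under 0.10, a q under 0.01, an unadjusted p under 0.05 and the normal reading. The related cytokines went from 0 to 2 at a q under 0.10 and 5 at an unadjusted p. The cell type markers went from 17 to 28 at an unadjusted p and 2 under the normal reading. With intervals of 1 SD in place of 2, 5 members had intervals apart (11.6%, against 4.85% of all tested symbols) in place of 0. The median log2 ratio of the members stayed between -0.06 and -0.01 under all pseudocounts, filters and scalings tried, and 24 to 26 members were lower under the scalings, a count that was added after seeing the data. No paired analysis was possible because the table holds 1 value per group, and for the same reason no replicate could be left out. Median SEs were 0.42 for members under 1 FPKM and 0.26 above, so small changes of single members could be missed. The authors' calls did not follow these SEs closely, since Il4ra was called at a log2 ratio of -0.38 with an SE of 0.21. Changes larger than these errors could also miss the threshold. Tnfsf13b, with a log2 ratio of 0.82, had q = 0.103 in the authors' deposited table.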
